A study of Mus musculus with 39 samples.

Results

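The apolipoproteins measured here are the protein parts of the particles that carry lipid in blood, together with Apoh, a plasma protein named for its binding to lipid. The members were Apoa1, Apoa2, Apoa4, Apoa5, Apob, Apoc3, Apoe, Apoh and Apom. Their probe sets were those of the deposited array values whose sole gene symbol in the platform annotation was a member. This gave 9 genes with 16 probe sets, among 18193 genes and 45101 probe sets in all. Apoa1 had 4 probe sets, Apoa4, Apob, Apoh and Apom had 2 each, and the remaining members had 1. Of the 9 members, 9 passed the filter on low signal, as did 12580 of the 18193 genes.

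RNA came from whole liver extract of male B6C3F1/Crl mice, a cross given as C57BL/6 male x C3H/He female. They arrived at an age of 29 to 32 days and had 5 days to acclimatise. Treated mice then drank water with phenobarbital, a barbiturate that induces drug-metabolising enzymes in liver, at 0.05% (w/v), and control mice did not. Groups were taken at 1, 7, 28 and 91 days, which gave 8 groups and 39 Affymetrix arrays, with 4 in the controls of day 1 and 5 in each other group. Mice of the later groups were therefore older, in both arms alike. The labels do not say that each array holds a separate mouse, so p-values here reflect the spread between the samples at hand, which may be technical. In an extract of whole liver, fewer cells of a type and less RNA per cell cannot be told apart.

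Apolipoproteins are made mainly by hepatocytes, and in part by the intestine, and are secreted on lipoprotein particles. Apob is the scaffold of very-low-density lipoprotein (VLDL), Apoa1 and Apoa2 are the main proteins of high-density lipoprotein (HDL), and Apoc3, Apoa4, Apoa5 and Apoe govern how triglyceride-rich particles are broken down and taken up. Their liver transcripts are among the most abundant of the organ, which on an array places them close to the upper end of the signal range.

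The genes lie in a few places. Apoa1, Apoc3, Apoa4 and Apoa5 are next to each other on chromosome 9, Apoe is on chromosome 7, Apob on chromosome 12, Apoh on chromosome 11, Apom on chromosome 17 and Apoa2 on chromosome 1. Promoter sequence was at hand for 8 of the 9 members, from RefSeq on GRCm38.p6. The 100 bases before the annotated start are printed for the 3 members that were lower at day 1 (Apoa5, Apob and Apoh) and for the member that was higher at day 7 (Apoa4), 5′ to 3′ on the strand of the gene, which is the plus strand in each case. The windows are chr9:46268508-46268607 for Apoa5, chr12:7977577-7977676 for Apob, chr11:108395197-108395296 for Apoh and chr9:46240744-46240843 for Apoa4. Capitals mark TATAAA, the core letters of the TATA box, which helps to position the start of transcription.
Apoa5: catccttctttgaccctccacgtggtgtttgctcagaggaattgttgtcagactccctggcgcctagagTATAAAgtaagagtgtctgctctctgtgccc
Apob: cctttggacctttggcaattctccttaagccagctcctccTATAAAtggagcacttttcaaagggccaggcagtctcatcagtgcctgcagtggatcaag
Apoh: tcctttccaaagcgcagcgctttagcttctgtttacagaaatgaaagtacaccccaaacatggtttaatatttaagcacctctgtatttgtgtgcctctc
Apoa4: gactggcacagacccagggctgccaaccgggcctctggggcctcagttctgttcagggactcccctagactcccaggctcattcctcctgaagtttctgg

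TATAAA was searched on both strands of the full reference windows, which also reach past each start. It was found in 3 of the 8 member promoters, with its first base at -31 in Apoa5, at -60 in Apob and at -212 in Apoa2, counted from the start, and in 14.2% of 27025 promoters of that length. AGGTCA, letters recognised by nuclear receptors, was found in 16% of all promoters and in Apoh, on the minus strand. Counted along the strand of the gene, the Apoh match begins at -215. CAAAGTCCA, a form of the HNF4 site, was in 0 of 8 member promoters and 0.477% of all, and GTTAAT, part of the HNF1 site, in 0 of 8 and 7.2% of all. These are matches of letters in a fixed window, and the data do not bear on binding there.

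The treatment showed in every comparison of the series. Cyp2b10, the cytochrome P450 most used as a sign of phenobarbital exposure in mouse liver, was 74, 82.2, 120 and 50-fold higher at days 1, 7, 28 and 91, and 5 of 5 genes of the list of known targets rose at each day. Hepatocyte markers (8 of 8 tested) lay above the array median on every array, with group means of 12.95 to 13.22 on the log2 scale. Array means lay between 6.22 and 6.26, and precision is limited by how many arrays a group has. A few arrays stood apart in other ways. Replicate 3 of the day 1 phenobarbital group carried a high signal of exocrine pancreas markers, of which 4 of 8 were tested. The mean of the 6 measured ran from 6.59 to 10.87 in that group and from 6.46 to 6.63 in its controls. Replicate 3 of the day 7 phenobarbital group carried high neutrophil markers, of which 2 of 7 were tested. The mean of the 5 measured ran from 5.22 to 9.65 in that group and from 5.53 to 6.83 in its controls. The same array carried high Kupffer cell markers (11 of 11 tested, 8.98 to 10.47 in that group against 9.29 to 9.83). The hybridisation spike-ins averaged 9.96 in the day 7 controls and 10.69 to 11.21 in the other groups. The gap between 3′ and 5′ control probe sets, a measure of RNA length, averaged 0.66 in the day 28 controls and 0.46 in their phenobarbital group. It averaged 0.54 in the day 1 controls, 0.45 in their phenobarbital group and 0.44 to 0.62 in the other groups.

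Phenobarbital was followed by small, mostly downward differences in apolipoprotein transcripts, and the members that passed the test were not the same at each day. At day 1 Apoa5, Apob and Apoh fell. Of a treated group, fell and rose mean lower and higher than the controls of the same day. At day 7 Apoa4 alone was called, and it rose. At day 28 Apoa1, Apoa5, Apob and Apom fell, and at day 91 Apoa2, Apoa5, Apoc3, Apoe and Apoh fell. Called differences spanned 1.03-fold to 1.47-fold, against 50 to 120-fold for Cyp2b10. Apoa5 was called at 3 of the 4 days, Apob and Apoh at 2, and each other member at 1.

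In numbers, 0 of 9 members were higher and 3 lower at day 1, where 15.8% and 16.7% of all genes tested were called higher and lower by limma (adjusted p under 0.05, Benjamini-Hochberg over all genes tested). At day 7, 1 was higher and 0 lower, against 5.64% and 11.4% of all genes. At day 28, 0 were higher and 4 lower, against 11.2% and 18.1%. At day 91, 0 were higher and 5 lower, against 4.62% and 16.1%. Where the count was 0, limma gave 0 members higher at an unadjusted p under 0.05 at day 1, 2 lower at day 7, 0 higher at day 28 and 1 higher at day 91. The median difference over the 9 members was -0.043, -0.02, -0.051 and -0.046 at days 1, 7, 28 and 91, beside 0.006, -0.048, -0.02 and -0.066 over all genes tested. The median of the members was thus within 0.1 of that of all genes at each day, on the log2 scale.

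The split of all calls into higher and lower depended on how the arrays were scaled. At day 1 it was 1982 higher to 2106 lower as deposited, 2830 to 1705 after quantile normalization and 2683 to 1579 after each array was centred on its median. At day 7 the same splits were 709 to 1429, 892 to 1079 and 931 to 879, and at day 28 they were 1403 to 2276, 2350 to 1708 and 1938 to 1692. At day 91 they were 581 to 2023, 778 to 1221 and 792 to 1076. The small member differences are read against that uncertainty, and calls lost under a scaling are named with each member.

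**Figure D1:**
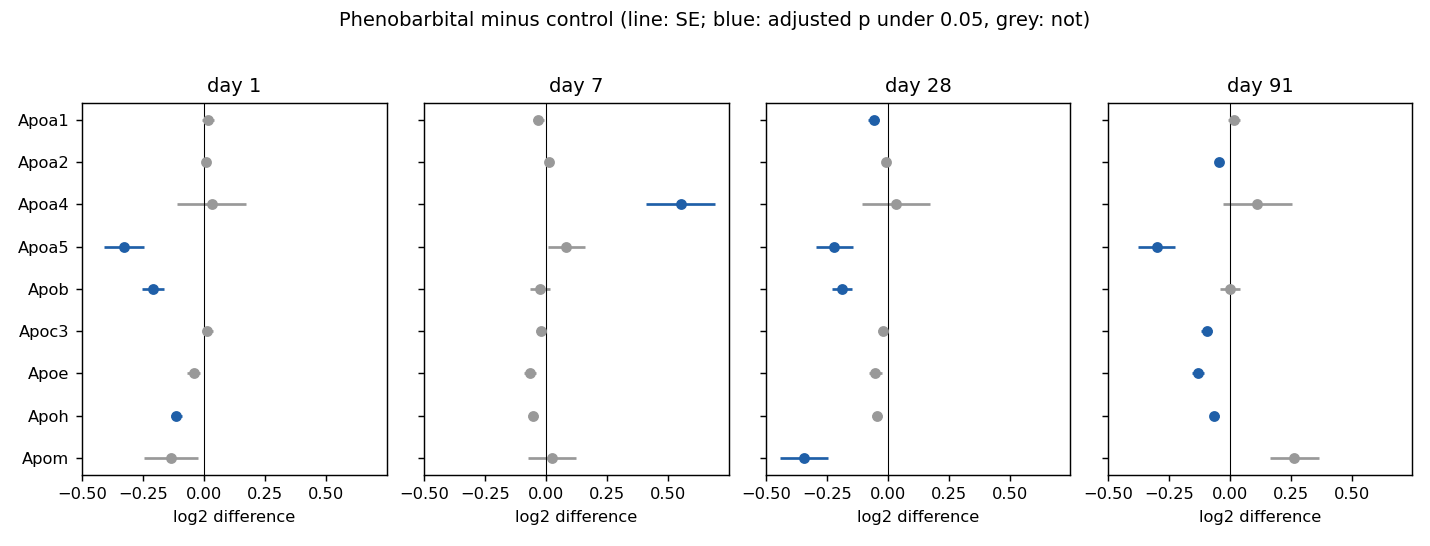
Differences between phenobarbital and control arrays for the 9 apolipoprotein genes at days 1, 7, 28 and 91, on the log2 scale, with bars of 1 standard error from the fit; blue points have an adjusted p under 0.05. Among the called differences Apoa4 at day 7 (0.55) is the only one above 0, and Apoa5 is called at days 1, 28 and 91.

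Apob encodes the structural protein of VLDL, of which each particle holds a single copy. At day 1 its log2 signal (probe set 1455593_at) was 14.44, 14.42, 14.43 and 14.40 on the control arrays and 14.12, 14.19, 14.27, 14.16 and 14.32 on the phenobarbital arrays. Every treated array lay below every control. The group means were 14.42 ± 0.0179 (SD, n = 4) and 14.21 ± 0.0797 (SD, n = 5), a difference of -0.21 (SE 0.044, 1.16-fold lower, limma adjusted p = 0.000391).

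At day 7 the Apob signals were 14.13, 14.18, 14.26, 14.27 and 14.28 in controls and 14.23, 14.17, 14.18, 14.20 and 14.23 with phenobarbital, so the groups overlapped and the difference was -0.02 (limma adjusted p = 0.743). At day 28 the controls read 14.35, 14.42, 14.41, 14.42 and 14.35 and the phenobarbital arrays 14.29, 14.12, 14.18, 14.14 and 14.28. The groups were again apart, by -0.19 (SE 0.041, 1.14-fold lower, limma adjusted p = 0.000951). At day 91 Apob was 14.35, 14.39, 14.36, 14.30 and 14.11 in controls and 14.31, 14.28, 14.27, 14.28 and 14.36 with phenobarbital. The means were level (-0.00, adjusted p = 0.994), and control replicate 5 lay below every other array of that day.

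The day 1 and day 28 calls of Apob held in every other setting and without any single array. With the 3′-5′ difference of the arrays as a covariate they were -0.198 at day 1 (limma adjusted p = 0.00147) and -0.165 at day 28 (adjusted p = 0.0349). That measure was higher in the controls at both days. It averaged 0.54 (0.46 to 0.58) against 0.45 (0.4 to 0.51) at day 1, and 0.66 against 0.46 at day 28. Without the day 1 array that carried pancreas markers the difference was -0.224 (adjusted p = 0.000348).

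The second Apob probe set, 1457554_at, has a far lower signal and showed the same days with a much wider spread. At day 1 it read 10.66, 10.05, 10.13 and 10.24 in controls and 8.70, 8.95, 9.04, 8.85 and 9.41 with phenobarbital. The groups were clear of each other, by -1.28 (SE 0.28, 2.43-fold lower, limma adjusted p = 0.00101 over all probe sets). At day 28 the controls read 10.60, 10.87, 10.49, 11.17 and 9.31 and the phenobarbital arrays 9.92, 8.82, 8.90, 8.29 and 8.79. Here control replicate 5 and treated replicate 1 overlapped, and the difference was -1.54 (SE 0.27, 2.91-fold lower, adjusted p = 8.85e-05). The differences at day 7 (0.48, adjusted p = 0.252) and day 91 (0.22, adjusted p = 0.613) were not called. The 2 probe sets correlated at 0.804 over 39 arrays. Thus both called Apob lower at days 1 and 28 and at neither other day, while the fold changes were 1.16 and 1.14 on the bright probe set and 2.43 and 2.91 on the dim one.

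**Figure D2:**
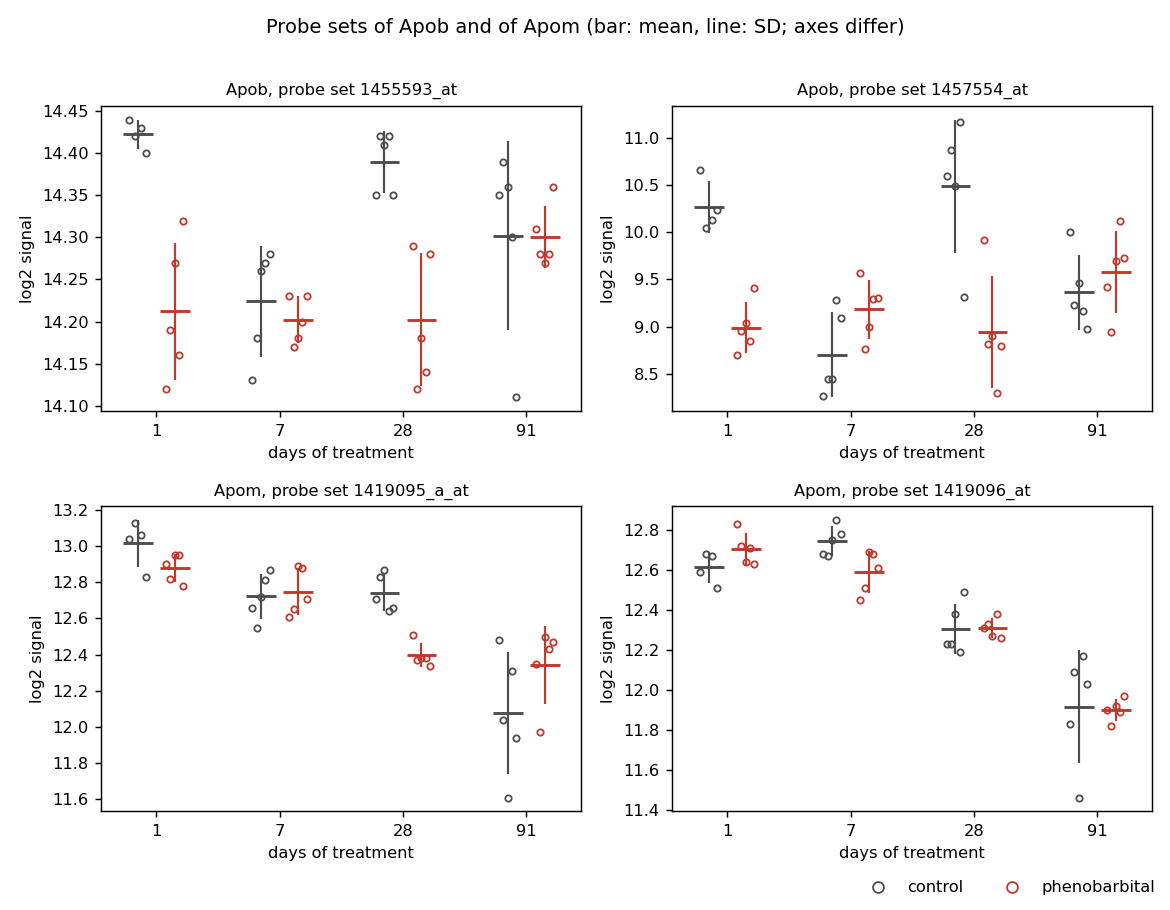
Log2 signal on each of the 39 arrays for both probe sets of Apob (1455593_at and 1457554_at) and of Apom (1419095_a_at and 1419096_at), with control arrays in grey and phenobarbital arrays in red. For Apob both probe sets are lower with phenobarbital at days 1 and 28, and for Apom the day 28 difference of -0.34 is seen on the first probe set and not on the second (0.01).

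Apoa1 encodes the main protein of HDL and the activator of the enzyme that esterifies HDL cholesterol. At day 28 its signal (1419233_x_at) was 14.81, 14.80, 14.80, 14.78 and 14.83 in controls and 14.74, 14.75, 14.72, 14.75 and 14.76 with phenobarbital. The groups did not overlap, and the difference was small, at -0.06 (SE 0.023, 1.04-fold lower, limma adjusted p = 0.0488). The other days gave 0.02, -0.03 and 0.02 at days 1, 7 and 91, none of them called. The day 28 call ended when any single array of that day was left out, controls and treated alike, with adjusted p from 0.0513 to 0.108. It also ended under 7 of 12 other settings, among them quantile normalization (-0.042, adjusted p = 0.217) and median centring (-0.025, adjusted p = 0.478). Among the other Apoa1 probe sets 1419232_a_at was called over all probe sets (-0.07, adjusted p = 0.0458), and 1438840_x_at (-0.05, adjusted p = 0.115) and 1455201_x_at (-0.05, adjusted p = 0.137) were not. Names that end in _x_at mark probe sets with probes that may also match other transcripts.

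Apoa2, the second protein of HDL, had the least spread of the members. At day 91 its signal (1417950_a_at) was 14.91, 14.91, 14.90, 14.91 and 14.91 in controls and 14.85, 14.87, 14.84, 14.88 and 14.88 with phenobarbital. The other groups of the series ran from 14.84 to 14.90, so these controls were the highest arrays, with a tie at 14.90. The day 91 difference was -0.05 (SE 0.015, 1.03-fold lower, limma adjusted p = 0.0332). Over all probe sets it was not called (limma adjusted p = 0.076). Of 12 other settings 5 ended the call, among them quantile normalization (-0.035, adjusted p = 0.197), and 1 changed the sign. The latter was median centring, which left a difference of 0.001 (adjusted p = 0.981). It also lost its call without control replicate 2 (adjusted p = 0.0665), 4 (0.0608) or 5 (0.06), or without treated replicate 1 (0.0849) or 3 (0.0881). At days 1, 7 and 28 the differences were 0.01, 0.01 and -0.01, none called.

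**Figure D3:**
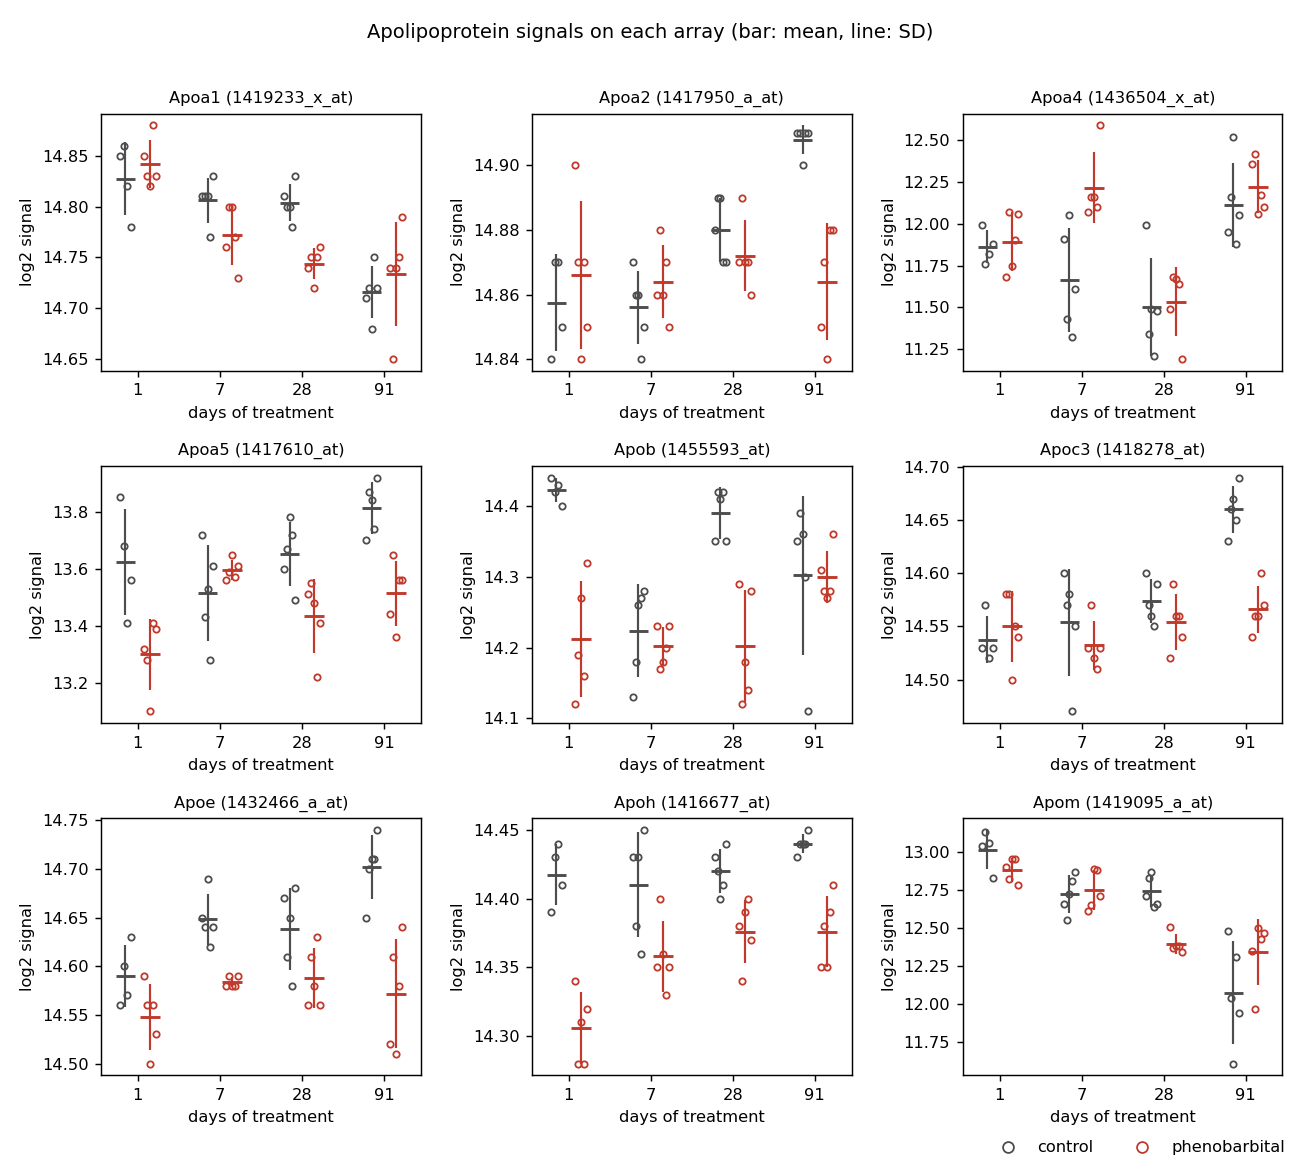
Log2 signal of the 9 apolipoprotein genes on all 39 arrays by day, control in grey and phenobarbital in red, with a bar at each group mean and a line of 1 SD. Each panel has its own axis: Apoa2 stays within 14.84 to 14.91, whereas Apoa4 runs from 11.19 to 12.59 and Apom from 11.61 to 13.13.

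Apoa4, made in liver and intestine and linked to the export of triglyceride-rich particles, was the sole member that rose. At day 7 its signal (1436504_x_at) was 11.91, 11.43, 12.05, 11.32 and 11.61 in controls and 12.07, 12.16, 12.16, 12.10 and 12.59 with phenobarbital. The lowest treated array lay just above the highest control, and treated replicate 5 lay well above its group. The means were 11.66 ± 0.311 (SD, n = 5) and 12.22 ± 0.21 (SD, n = 5), a difference of 0.55 (SE 0.14, 1.47-fold higher, limma adjusted p = 0.00455). Without treated replicate 5 it was 0.46 (adjusted p = 0.022), and without treated replicate 3, the array with high neutrophil and Kupffer cell markers, 0.566 (adjusted p = 0.00688).

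The second Apoa4 probe set, 1417761_at, gave 11.63, 11.03, 11.79, 11.02 and 11.31 in the day 7 controls and 11.70, 11.88, 11.87, 11.74 and 12.40 with phenobarbital. The difference was 0.56 (SE 0.16, 1.48-fold, limma adjusted p = 0.0161 over all probe sets), although here 1 control (11.79) lay above treated arrays. This call ended without control replicate 2 or 4 or without treated replicate 5, where the adjusted p reached 0.0687. Both probe sets moved together over the 39 arrays (r = 0.973). The spike-in mean also differed between the day 7 groups, 9.96 (9.58 to 10.27) against 10.85 (10.76 to 10.97); with that mean as a covariate the rise of Apoa4 was still called.

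At the other days the Apoa4 groups overlapped. The controls read 11.99, 11.76, 11.82 and 11.88 at day 1 against 11.68, 12.07, 11.75, 11.90 and 12.06 with phenobarbital, a difference of 0.03 (adjusted p = 0.891). At day 28 the difference was 0.03 (adjusted p = 0.876) and at day 91 it was 0.11 (adjusted p = 0.593). Enterocyte markers, which would mark intestine, were tested for 2 of 9 genes. The mean of the 8 measured lay between 5.60 and 5.95, about the array median of 5.69 to 5.80.

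Apoa5, a liver protein that promotes the breakdown of plasma triglyceride, fell at 3 of the 4 days. At day 1 its signal (1417610_at) was 13.85, 13.68, 13.41 and 13.56 in controls and 13.32, 13.28, 13.10, 13.41 and 13.39 with phenobarbital. The groups met at 13.41. The means were 13.63 ± 0.187 (SD, n = 4) and 13.30 ± 0.126 (SD, n = 5), a difference of -0.33 (SE 0.081, 1.26-fold lower, limma adjusted p = 0.00206). Without the array that carried pancreas markers it was -0.277 (adjusted p = 0.00919).

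At day 7 Apoa5 was 13.72, 13.43, 13.53, 13.28 and 13.61 in controls and 13.56, 13.59, 13.65, 13.57 and 13.61 with phenobarbital. The treated arrays lay inside the range of the controls, and the difference was 0.08 (adjusted p = 0.49). At day 28 the controls were 13.60, 13.67, 13.78, 13.72 and 13.49 and the treated arrays 13.51, 13.55, 13.48, 13.22 and 13.41, so that 2 treated arrays reached above the lowest control. The difference was -0.22 (SE 0.076, 1.16-fold lower, limma adjusted p = 0.0281). This call ended without control replicate 3 (-0.188, adjusted p = 0.0872) or 4 (-0.202, 0.069) and without treated replicate 4 (-0.167, 0.11) or 5 (-0.213, 0.051). Median centring (-0.186, 0.064) and the 3′-5′ covariate (-0.255, 0.0817) ended it too.

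At day 91 Apoa5 was 13.70, 13.87, 13.84, 13.74 and 13.92 in controls and 13.44, 13.65, 13.36, 13.56 and 13.56 with phenobarbital. All treated arrays lay below all controls. The means were 13.81 ± 0.0941 and 13.51 ± 0.114 (SD, n = 5 each), a difference of -0.30 (SE 0.076, 1.23-fold lower, limma adjusted p = 0.00564). The day 1 and day 91 calls held in every other setting and without any single array.

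Apoc3, an inhibitor of lipoprotein lipase and of particle uptake, was called only at day 91. Its signal (1418278_at) was then 14.63, 14.66, 14.67, 14.65 and 14.69 in controls and 14.54, 14.56, 14.56, 14.60 and 14.57 with phenobarbital, while all other groups lay between 14.47 and 14.60. The treated arrays of day 91 were thus within the range of the earlier days and the controls above it. The means were 14.66 ± 0.0206 and 14.57 ± 0.0208 (SD, n = 5 each), a difference of -0.09 (SE 0.022, 1.07-fold lower, limma adjusted p = 0.00275). Median centring ended this call (-0.048, adjusted p = 0.162). The differences of the earlier days were 0.01, -0.02 and -0.02, none called.

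Apoe, the ligand through which remnant particles are taken up, was lower at day 91. Controls read 14.65, 14.70, 14.71, 14.71 and 14.74 and phenobarbital arrays 14.52, 14.61, 14.51, 14.58 and 14.64 on 1432466_a_at. No treated array reached the lowest control. The means were 14.70 ± 0.0329 and 14.57 ± 0.0551 (SD, n = 5 each), a difference of -0.13 (SE 0.025, 1.09-fold lower, limma adjusted p = 0.000441), and this call held in every other setting and without any single array.

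At day 7 Apoe was 14.65, 14.64, 14.69, 14.62 and 14.64 in controls and 14.58, 14.59, 14.58, 14.58 and 14.59 with phenobarbital. These groups did not overlap either, yet the difference of -0.07 (SE 0.025) missed the threshold (limma adjusted p = 0.0649). After quantile normalization it was -0.088 (adjusted p = 0.0291). At days 1 and 28 Apoe differed by -0.04 (adjusted p = 0.211) and -0.05 (adjusted p = 0.117).

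Apoh, also known as beta-2-glycoprotein I, binds phospholipid and is secreted by hepatocytes. At day 1 its signal (1416677_at) was 14.39, 14.43, 14.44 and 14.41 in controls and 14.34, 14.28, 14.31, 14.28 and 14.32 with phenobarbital. The groups were apart, with means of 14.42 ± 0.0199 (SD, n = 4) and 14.31 ± 0.0244 (SD, n = 5). The difference was -0.11 (SE 0.022, 1.08-fold lower, limma adjusted p = 0.000126), the smallest adjusted p of a member in the 4 comparisons with control, and the call held in every other setting and without any single array.

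At day 28 Apoh was 14.43, 14.42, 14.40, 14.41 and 14.44 in controls and 14.38, 14.34, 14.39, 14.40 and 14.37 with phenobarbital, groups that touched without crossing, and the difference of -0.05 was not called (limma adjusted p = 0.0818). At day 91 the controls were 14.43, 14.44, 14.44, 14.44 and 14.45 and the treated arrays 14.35, 14.38, 14.35, 14.39 and 14.41. All treated arrays were lower, by -0.06 (SE 0.02, 1.04-fold lower, limma adjusted p = 0.0247). The day 91 call ended without control replicate 5 (-0.06, adjusted p = 0.0558) and without treated replicate 1 (-0.058, 0.0669) or 3 (-0.056, 0.0744). Of 12 other settings 5 ended it too, among them quantile normalization (-0.028, 0.404) and median centring (-0.017, 0.654). At day 7 the difference was -0.05 (adjusted p = 0.0745). The dim second probe set, 1447719_at, read 6.89, 7.27, 7.10 and 7.24 in the day 1 controls and 6.60, 6.89, 6.81, 6.64 and 6.82 with phenobarbital, a difference of -0.37 (adjusted p = 0.00868 over all probe sets). It was not called at the other days, and the 2 probe sets correlated at 0.389 over the arrays.

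Apom, which carries sphingosine-1-phosphate on HDL, gave the largest fall among the probe sets that represent a gene, and the least even picture. At day 28 its signal (1419095_a_at) was 12.71, 12.83, 12.87, 12.64 and 12.66 in controls and 12.51, 12.37, 12.38, 12.38 and 12.34 with phenobarbital. The groups were apart, by -0.34 (SE 0.1, 1.27-fold lower, limma adjusted p = 0.0111). The second probe set, 1419096_at, read 12.23, 12.23, 12.38, 12.19 and 12.49 in the same controls and 12.31, 12.33, 12.27, 12.38 and 12.26 with phenobarbital. It showed no such gap, at 0.01 (adjusted p = 0.953), so the 2 probe sets of Apom disagree at day 28. With the mean of both the difference was -0.168 (adjusted p = 0.111). The call on the first probe set also ended under a covariate, either the mean of the spike-ins (-0.21, adjusted p = 0.114) or the 3′-5′ difference (-0.19, adjusted p = 0.338), and it held without any single array.

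At day 91 the first Apom probe set read 12.48, 12.04, 11.61, 12.31 and 11.94 in controls and 12.35, 11.97, 12.50, 12.43 and 12.47 with phenobarbital. The controls were widely spread (SD 0.336), and the difference of 0.26 was not called (limma adjusted p = 0.0623). It was called without control replicate 1 (0.365, adjusted p = 0.00669) or 4 (0.321, 0.038), and without treated replicate 2 (0.358, 0.0109). The second probe set differed by -0.02 (adjusted p = 0.911), so a rise of Apom at that day rests on a single probe set and on which arrays are kept. At days 1 and 7 the first probe set differed by -0.13 (adjusted p = 0.357) and 0.03 (adjusted p = 0.897).

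Over all 16 probe sets, 5 were called at day 1, 2 at day 7, 5 at day 28 and 4 at day 91, against 26.2%, 11.8%, 25.1% and 16.2% of 45037 probe sets called in either direction. The 2 calls of day 7 are both Apoa4. The 4 Apoa1 probe sets moved together, with correlations of 0.917 to 0.972 over the 39 arrays.

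Most members sat near the top of the signal range, meant here as the highest 1% of probe sets on an array, or 451 probe sets. That threshold lay at 12.92 to 13.01 and the brightest probe set at 15.03 to 15.12. On every array 10 of the 16 member probe sets were in that top 1%: all 4 of Apoa1, and those of Apoa2, Apoa5, Apoc3 and Apoe with the brighter ones of Apob and Apoh. Apoa2 ranked 4 to 7 on the arrays, 0.17 to 0.27 below the maximum, and Apoa1 (1419233_x_at) ranked 4 to 16, 0.17 to 0.47 below it. Apoe ranked 10 to 29, Apoc3 14 to 29, Apoh 32 to 56 and Apob 33 to 78. Apoa5 ranked 107 to 402 and lay 1.16 to 1.99 below the maximum. Apom (1419095_a_at) was in the top 1% on 3 arrays, and Apoa4 on 0, ranking 679 to 1777.

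Among the probe sets that represent a gene, those of Apoa4, Apom and Apoa5 had the most room above them. They also gave the largest called differences and the widest spread. This did not hold at each day: at days 1 and 28 Apoa4 differed by 0.03 and 0.03, and Apob by -0.21 and -0.19. Within groups the SD was 0.0049 to 0.021 for Apoa2 and 0.021 to 0.05 for Apoc3, but 0.036 to 0.19 for Apoa5, 0.099 to 0.31 for Apoa4 and 0.064 to 0.34 for Apom. Over all genes tested, differences were smallest in the brightest band at each day. The 57 genes with a mean signal over 14 had a median absolute difference of 0.063, 0.044, 0.044 and 0.062 at days 1, 7, 28 and 91, and no difference above 0.78. In the 6373 genes with a mean up to 8 the medians were 0.15, 0.13, 0.145 and 0.142. The residual SD of the fit fell alongside, from a median of 0.152 in the lowest band to 0.0445 in the highest, so small differences could be called near the top. Of those 57 genes 20 were called at day 91, or 35.1%, and 20, 10 and 17 at days 1, 7 and 28. Whether true changes of the brightest members were larger than their arrays show was not tested.

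**Figure D4:**
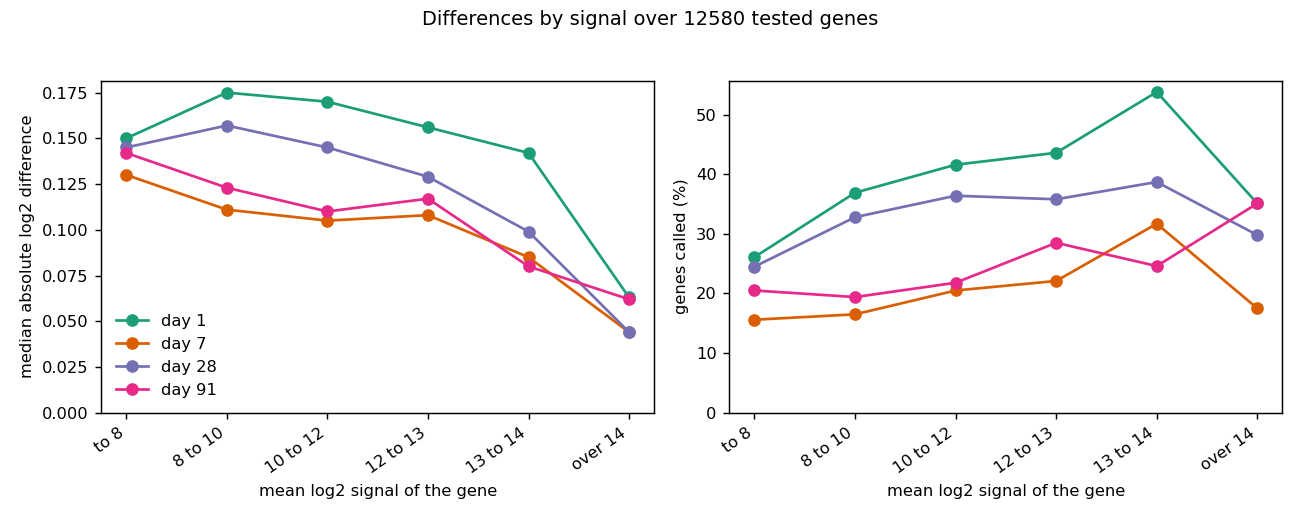
Median absolute log2 difference between phenobarbital and control, and percent of genes called, at each day in 6 bands of mean log2 signal over the 12580 genes tested. In the band over 14, which holds Apoa1, Apoa2, Apob, Apoc3, Apoe and Apoh, the median difference is 0.044 to 0.063, and in the band up to 8 it is 0.13 to 0.15.

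Whether the response of a member differed between days was tested directly. An F test of equal differences at the 4 days called 4 of 9 members, against 35.1% of all genes tested: Apob (limma adjusted p = 0.00683), Apom (0.0091), Apoa5 (0.0107) and Apoc3 (0.0365). With the spike-in mean or the 3′-5′ difference as a covariate, the F test called 1 member. From day 1 to day 7 the difference moved up for 2 members, Apoa5 by 0.41 (adjusted p = 0.00801) and Apob by 0.19 (adjusted p = 0.0249), where 21.3% of genes were called in either direction. The call of Apob ended without day 1 treated replicate 1 or day 7 control replicate 1, and that of Apoa5 under the covariate for spike-in level. From day 7 to day 28 limma called 0 members, against 11.8% of genes, with 4 lower at an unadjusted p under 0.05. Apoa4 was not called in either step (0.52 up to day 7, adjusted p = 0.0551, and -0.52 on to day 28, adjusted p = 0.0685), so its rise at day 7 is not shown to differ from the days around it.

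From day 28 to day 91 the difference moved up for Apob by 0.19 (limma adjusted p = 0.022) and for Apom by 0.61 (adjusted p = 0.00518), where 21.7% of genes were called. The Apob step lost its call without day 91 control replicate 5, and the Apom step lost its call with the mean of both probe sets or with either array measure as a covariate. For the dim Apob probe set the difference moved by 1.76, -2.02 and 1.76 from day to day (adjusted p = 0.00279, 0.00202 and 0.00264). Its differences at days 1 and 28 thus stood apart from the days beside them. The group means of that probe set at days 1, 7, 28 and 91 were 10.27, 8.70, 10.49 and 9.37 in controls. With phenobarbital they were 8.99, 9.18, 8.95 and 9.58. The steps thus came mostly from the controls, which were high at days 1 and 28, and the cause was not tested. The Apoe and Apoh differences were below 0 at all 4 days, and their F tests were not called (adjusted p = 0.157 and 0.197).

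Several members differed between the untreated controls of the first and last day, which differ in age and also in day of sampling, and age cannot be told apart from that. The spike-in mean ran from 10.91 to 10.97 in the former and from 10.37 to 11.77 in the latter, and the gap between 3′ and 5′ probe sets from 0.46 to 0.58 and from 0.45 to 0.87. With either measure as a covariate 6 members were called between these controls, as without it. Between the controls of day 1 and day 91, 3 members were higher, where 19.7% of genes were, and 3 were lower, where 16.6% were. Apoc3 was higher by 0.13 (limma adjusted p = 6.16e-05), Apoe by 0.11 (adjusted p = 0.00128) and Apoa2 by 0.05 (adjusted p = 0.0141). Apoa1 changed by -0.11 (adjusted p = 0.000645) and Apob by -0.12 (adjusted p = 0.0286). Apom changed most, by -0.94 (1.91-fold lower, adjusted p = 3.1e-08), from 13.04, 13.13, 13.06 and 12.83 at day 1 to the day 91 values above. Its second probe set fell as well, at -0.69 (adjusted p = 9.17e-08). The Apob change lost its call without day 1 control replicate 1, 2 or 3 or day 91 control replicate 5, where the adjusted p reached 0.15.

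The change in controls and the difference at day 91 are linked through the same 5 control arrays. In Apoa2, Apoc3 and Apoe the day 91 controls had the highest group mean of all 8, and the gap to the next group, 0.029, 0.087 and 0.054, was larger than the SD of both. In Apoh and Apoa5 these controls were also highest, by 0.019 and 0.163. The treated groups of day 91 were not the lowest of the 8 in any of these members. Between the phenobarbital groups of day 1 and day 91, Apoa2, Apoc3 and Apoe changed by -0.00, 0.02 and 0.03, none called. Apoa5 (0.21, limma adjusted p = 0.0186) and Apoh (0.07, adjusted p = 0.00437) were higher in the day 91 phenobarbital group. For Apom the order ran from the day 1 controls (13.01) through the day 1 phenobarbital group (12.88) down to the day 91 controls (12.08). The gap of 0.131 from the second to the third place was just above both SDs, and the third to the fifth means of 12.75, 12.74 and 12.72 were close, with SDs of 0.1 to 0.13. For Apob the day 1 and day 28 controls (14.42 and 14.39) led, and the 4 lowest groups, between 14.23 and 14.20, did not differ beyond their spread.

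Over the 39 arrays members fell into loose pairs, which is a description, since arrays share group, age and scaling. Apoa1 and Apom had r = 0.827, Apoa2 and Apoc3 0.825, Apoe and Apoh 0.736, and Apoc3 and Apoe 0.725. Apoc3 and Apom ran opposite, at -0.646. Apob was close to no other member, with r from -0.104 to 0.43. Among the neighbours on chromosome 9, Apoa1 had r = -0.318 with Apoc3, -0.34 with Apoa4 and -0.275 with Apoa5, whereas Apoa5 had 0.556 with Apoc3 and 0.252 with Apoa4, and Apoa4 had 0.244 with Apoc3.

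Among all other tested genes those most like a member were taken by the highest Pearson correlation over the 39 arrays. For Apob these were Zfp280d (0.86), Itgav (0.86) and Mef2a (0.852), whose differences were -0.55, -0.31 and -0.76 at day 1 and -0.60, -0.39 and -0.56 at day 28. For Apoe they were Eml3 (0.901), Aar2 (0.858) and Dmac2 (0.858). For Apoh they were Ccdc162 (0.852), Fam210b (0.836) and Tle2 (0.819), and for Apom they were Fam3c (0.869), Rps24 (0.868) and Lpl (0.865). Apoa5 was nearest to Hamp (0.755), Sirt3 (0.75) and Rtf2 (0.746), Apoa4 to Ces2e (0.779), Lgals1 (0.746) and Elovl6 (0.682), and Apoa1 to Ahsg (0.803), Tceal9 (0.792) and Nemp1 (0.784). Apoa2 was nearest to Hsd17b10 (0.813), Acot7 (0.806) and Cmtm4 (0.767), and Apoc3 to Cmtm4 (0.845), Dym (0.83) and Slc47a1 (0.821). Part of each value comes from the group means: within groups, Apoh and Ccdc162 had 0.448 and Apob and Mef2a 0.698.

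The other genes of lipoprotein biology give the setting. Over all genes tested, 15.8%, 5.64%, 11.2% and 4.62% were called higher at days 1, 7, 28 and 91. Called lower were 16.7%, 11.4%, 18.1% and 16.1%, and each list count below is to be read beside these shares. The lists share some genes, so their counts are not separate. Lcat and Pltp are counted with the other apolipoproteins, the lipases and the HDL genes, and Scarb1 with the HDL genes and the receptors. Of 15 other apolipoproteins, particle proteins and related genes, Apobec1 and Apobr among the latter, 0 rose at any day. Lower at days 1, 7, 28 and 91 were 5, 2, 3 and 6, with Apobec1 counted at day 1. Apoc4, which lies close to Apoe, fell at each day (-0.10, limma adjusted p = 0.0119, then -0.15 with 0.000539, -0.17 with 3.86e-05 and -0.14 with 0.00102), and the day 1 call ended under median centring. Apoc1 and Apoc2 of the same cluster fell at day 91 (-0.11, adjusted p = 0.00395, and -0.22, adjusted p = 0.00684), the day at which Apoe was called too, and the Apoc1 call ended under median centring. Saa4, a constitutive HDL protein, fell at day 1 (-0.67, adjusted p = 0.000128). Pltp, which moves phospholipid between particles, fell at day 91 (-1.17, 2.25-fold lower, adjusted p = 5.3e-05), as did Lcat, the enzyme that Apoa1 activates (-0.40, adjusted p = 0.00118). Pltp was also called lower at day 28, and Lcat at day 7.

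Genes of lipoprotein assembly and secretion, which handle Apob in the hepatocyte, were split. Of 15 tested, 3, 2, 5 and 1 rose and 3, 1, 2 and 4 fell at days 1, 7, 28 and 91. Sar1b, the small GTPase of the vesicles that carry lipoprotein out of the endoplasmic reticulum, rose at each day, by 0.36 (limma adjusted p = 2.44e-07), 0.44 (9.05e-10), 0.31 (1.43e-06) and 0.25 (9.06e-05). Tm6sf2, needed to load VLDL with lipid, rose at the days when Apob fell, by 0.51 at day 1 (adjusted p = 0.00048) and 0.48 at day 28 (adjusted p = 0.000706), where the 3′-5′ covariate ended the call (adjusted p = 0.0881). Mia2, a cargo receptor of the same route, fell at those days (-0.46 and -0.52, adjusted p = 0.00323 and 0.00086), although its signal was low. Mttp, which loads lipid onto Apob, was called at day 7 (0.28, adjusted p = 0.0358), and this ended without control replicate 1, 2 or 4 or treated replicate 1, 4 or 5.

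In the genes of HDL formation and sterol efflux 0 of 11 tested rose at any day, and 4, 6, 5 and 5 fell. At day 1 these were Abca1, which lipidates Apoa1, at -0.53 (limma adjusted p = 8.55e-07), Abcg5 at -0.72 (7.14e-07), Abcg8 at -0.64 (4.11e-05) and Scarb1, the HDL receptor, at -0.89 (8.8e-07). Scarb1 was read on an _x_at probe set, and without such probe sets its difference was -0.29 (adjusted p = 0.156). Neither Apoa1 nor Apoa2 was called at that day. The median of this list was -0.23, -0.28, -0.17 and -0.21 at the 4 days, beside 0.006, -0.048, -0.02 and -0.066 over all genes.

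Receptors and uptake genes (13 tested) gave 0, 2, 3 and 0 higher and 2, 5, 3 and 4 lower, among them Lrp1, a receptor of Apoe-bearing remnants, at day 91 (-0.44, limma adjusted p = 0.00103). Lrp1 was also called lower at day 7. Lipases and lipid exchange genes (11 tested) gave 2, 1, 3 and 3 higher and 0, 1, 3 and 3 lower. Lpl, the lipase that Apoc3 inhibits, rose at day 91 by 0.97 (adjusted p = 1.39e-05).

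Of 26 tested regulators of apolipoprotein genes, 3, 1, 1 and 0 rose and 5, 6, 5 and 5 fell. Ppara, a nuclear receptor that acts on several apolipoprotein genes, fell at each day, with differences of -1.0 (limma adjusted p = 2.44e-07), -0.48 (0.00405), -0.87 (1.44e-06) and -0.46 (0.00532). Foxa3, a liver transcription factor, fell at day 1 (-0.75, adjusted p = 0.000102) and day 7 (-1.0, adjusted p = 1.15e-06). Ppargc1a, a coactivator of HNF4 and PPAR alpha, fell at day 1 (-1.39, adjusted p = 0.000782) and was also called lower at day 28. Hnf4a, a nuclear receptor known to activate these genes, was not called at any day, with adjusted p from 0.404 to 0.748.

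Called genes beside the members on the chromosome were all lower at days 7 and 91. They went both ways at day 28 and, around Apoe, at day 1. Around the chromosome 9 cluster 11 genes were tested, with 0, 0, 2 and 0 higher and 3, 2, 3 and 3 lower. Around Apoe, where the list includes Apoc1, Apoc2 and Apoc4, 12 were tested, with 3, 0, 3 and 0 higher and 2, 3, 1 and 5 lower. Among 18 tested genes of other abundant proteins secreted by hepatocytes, 0, 0, 1 and 1 rose and 3, 4, 4 and 5 fell, with medians of -0.04, -0.03, -0.01 and -0.05, beside -0.043, -0.02, -0.051 and -0.046 for the apolipoproteins. Alb and Ttr, at the same end of the signal range, were not called at any day.

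At day 28, the day of 4 member falls, 5 of 8 stellate cell markers tested fell, where 18.1% of all genes tested did. The mean of the 9 measured was 8.75 to 8.85 in controls and 8.26 to 8.67 with phenobarbital. Of 8 endothelial markers 5 fell as well (8.59 to 9.09 in controls and 8.32 to 8.76 with phenobarbital). Of 11 Kupffer cell markers 1 fell (Cd163), of 3 cholangiocyte markers tested 1 rose (Epcam), and of 8 hepatocyte markers 1 rose and 1 fell at that day. Days 1, 7 and 91 had 3, 0 and 5 member falls. At these days 1, 3 and 2 of 8 stellate and 1, 2 and 2 of 8 endothelial markers fell. Of all genes tested, 16.7%, 11.4% and 16.1% were lower at those days. The part of cell composition in the member differences was not tested.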

How the data were processed

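Liver RNA of 39 mouse samples was measured on Affymetrix arrays, grouped by treatment and duration as the labels give them. The deposited values are log2 signals, processed by the authors with GCOS, per the submitters' processing notes. How arrays were normalized and probes combined is not given in the sources used here, and the values were used unchanged. The treatment protocol mentions 28 days, whereas durations given per sample reach 91 days and were used.

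Each gene was represented by its single-symbol probe set with the highest mean and was tested when above the array median on at least 4 arrays. A model with 1 mean per group was fitted in limma 3.58.1 (R 4.3.3) with a variance trend, 31 residual and 4.46 prior degrees of freedom. P-values are 2-sided, adjusted over all 12580 genes (45037 probe sets without a filter), and called under 0.05. The procedure was tested on simulated data. Named were all members and their probe sets, up to 4 called genes per list and day with the smallest p, treatment check genes, and the 3 genes most like each member. Hnf4a, Alb, Ttr and other genes not called were named, and signal bands set, after their values were seen. The members and lists were chosen with earlier results of these data known. Alternatives were quantile normalization, median centring, no or a stricter filter, the mean of probe sets, no _s_at or _x_at probe sets, a prior without trend or a robust one, array weights, fits of the compared arrays alone, spike-in or 3′-5′ covariates, and leaving out each array.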

Additional observations from a re-analysis of the deposited data

Results flagged for a closer look

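In groups of 4 or 5 arrays an array was set apart where its gap to the nearest other, over the range of the group, exceeded the critical value of Dixon's test. This held in 5 of 128 groups, and chance alone gives about 5%. In Apoa4 treated replicate 5 of day 7 stood above its group on both probe sets, at 12.59 against 12.07 to 12.16 (1436504_x_at) and at 12.40 against 11.70 to 11.88 (1417761_at). In Apoc3 replicate 2 of the day 1 controls was at 14.57 against 14.52 to 14.53. In Apom (1419095_a_at) replicate 1 of the day 28 phenobarbital group was at 12.51 against 12.34 to 12.38, and replicate 2 of the day 91 phenobarbital group was at 11.97 against 12.35 to 12.50.

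The difference between phenobarbital and control changed between days, by the test of that change in limma, for Apoa5 from day 1 to day 7 (0.41, adjusted p = 0.00801) and for Apob from day 1 to day 7 (0.19, adjusted p = 0.0249), from day 28 to day 91 (0.19, adjusted p = 0.022) and from day 1 to day 91 (0.21, adjusted p = 0.00924). It also changed for Apom from day 28 to day 91 (0.61, adjusted p = 0.00518) and from day 1 to day 91 (0.40, adjusted p = 0.0413), and for Apoc3 from day 1 to day 91 (-0.11, adjusted p = 0.0103). The Apom change from day 1 to day 91 lost its call in 13 of 19 fits that left out an array.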

How the results depend on the processing

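Of the member differences at the 4 days, 377 values under other settings kept their direction and side of the threshold, 23 lost a call, 13 gained 1 and 19 changed sign, and with 1 array left out these counts were 307, 22, 5 and 17. Values that changed sign were small in the reported fit and were not called there, apart from Apoa2 at day 91. Under quantile normalization they were Apoa2 (-0.017) and Apom (-0.01) at day 7 and Apob at day 91 (0.036). Under median centring they were Apoa1 (0.008), Apob (0.017) and Apoc3 (0.019) at day 7, Apoa2 (0.024) and Apoc3 (0.014) at day 28, and Apoa2 (0.001) and Apob (0.046) at day 91. With the mean of all probe sets they were Apob (0.228) and Apom (-0.065) at day 7 and Apob at day 91 (0.109). With array weights Apoa2 was -0.003 at day 1. Under the spike-in covariate Apoc3 was 0.018 and Apom -0.324 at day 7 and Apoa4 -0.005 at day 28, and under the 3′-5′ covariate Apoa4 was -0.009 at day 1 and -0.053 at day 28.

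Members called at day 7 numbered 3 under quantile normalization, the stricter filter and array weights, and 2 under median centring and the 3′-5′ covariate, while 4 probe sets were called under quantile normalization. At day 28 they numbered 2 under median centring and the spike-in covariate and 1 under the 3′-5′ covariate, with 3, 3 and 2 probe sets. At day 91 they numbered 3 under quantile normalization, median centring, no variance trend and the compared arrays alone, with 2 probe sets under no trend. The F test called 1 member under either covariate. The cause was not tested.

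With 1 array left out, members called ranged from 3 to 3, 1 to 2, 2 to 3 and 3 to 6 at days 1, 7, 28 and 91, probe sets from 5 to 5, 1 to 2, 3 to 4 and 3 to 5, the F test from 3 to 5 and the change in controls from 5 to 7. The day 91 count was 3 without control replicate 5 or treated replicate 1 or 3. Differences that crossed 0 ranged from 0 to 0.027 (Apoa1), -0.001 to 0.012 (Apoa2) and -0.013 to 0.084 (Apoa4) at day 1, -0.018 to 0.062 (Apom) at day 7, -0.038 to 0.156 (Apoa4) at day 28 and -0.048 to 0.021 (Apob) at day 91. Probe sets in the top 0.5% and 2% of every array numbered 9 and 10.

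No paired analysis was possible because the labels carry no replicate numbers and the numbers used here follow accession order. Arrays give no counts, so precision rests on their number, and the median absolute difference of all genes tested was smallest near the top of the range.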
